A study of Mus musculus with 24 samples.

Results

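A set of 10 imprinted genes that act on growth was followed across sorted cells of the mouse embryo: Igf2, H19, Igf2r, Grb10, Plagl1, Cdkn1c, Mest, Peg3, Dlk1 and Meg3. They were matched by gene symbol and are 10 of the 29716 genes in the count table, and all 10 passed the filter on low counts. An imprinted gene is read mainly from the copy inherited from one parent. Igf2, Plagl1, Mest, Peg3 and Dlk1 are known as paternally expressed, and H19, Igf2r, Grb10, Cdkn1c and Meg3 as maternally expressed. In the mouse the paternally expressed members of this set mostly favour fetal growth and the maternally expressed ones mostly restrain it, and both kinds are known to be active in the endothelium and blood-forming cells of the embryo. The embryos were of one inbred strain, so the read counts do not separate the parental copies and no result here bears on imprinting itself.

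The study asked which genes differ when the Notch ligand Dll4 of endothelium is blocked while blood cells form. C57BL/6J embryos of embryonic day 10.5 received anti-Dll4 antibody or a control anti-human IgG by injection into the heart. They were then held for 5 h at 37 °C in medium with 10 ng/ml IL-3, 10 µM hydrocortisone and 5 µg/ml of the same antibody. CD31+ cells were sorted into 3 populations (Kit+ CD45+, Kit+ CD45-, and the Kit-negative Kit- CD41+ CD45- cells), and polyadenylated RNA was sequenced from 4 libraries of each population under each antibody, 24 in all. Every group, the IgG groups included, was therefore injected and cultured with IL-3 and hydrocortisone, and there was no uninjected group. The labels do not say which part of the embryo was digested, or whether embryos were pooled. Whether the 4 libraries of a group came from separate embryos is not stated either, so p-values here reflect library-to-library spread, which may be technical.

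Library totals ran from 8718351 to 11379830 counts. Levels are given as CPM, read counts scaled to a common library size by TMM, which sets that scale by the bulk of the genes, and means carry the SD of the 4 libraries of a group (n = 4). The sort markers followed their labels: the CD45 gene Ptprc averaged 79.1 CPM under anti-Dll4 and 82.3 CPM under IgG in Kit+ CD45+ cells and at most 0.81 CPM in the other groups, and the CD41 gene Itga2b was highest in Kit- CD41+ CD45- cells. The endothelial cadherin gene Cdh5 averaged 0.318 CPM under anti-Dll4 and 0.572 CPM under IgG in Kit- CD41+ CD45- cells, while the CD31 gene Pecam1 averaged 52.3 and 67.2 CPM there. Globin genes took 35.4 ± 11.2% of the counts under anti-Dll4 and 26.9 ± 7.21% under IgG in Kit+ CD45- cells, and the germ cell gene Dppa3 averaged 108 and 111 CPM there. Several libraries stood apart. Kit+ CD45- IgG replicate 1 had the lowest globin share of its group (16.9%) and the most endothelial RNA, with 253 CPM of Pecam1 against 102 to 141 CPM and 20 pan-endothelial markers summing to 3419 CPM against 1517 to 1899 CPM in its fellow replicates. Kit+ CD45+ IgG replicate 1 had the least myeloid RNA of its group, with 6.52 CPM of the macrophage receptor gene Csf1r against 46.2 to 68.9 CPM, 4.46 CPM of the platelet factor gene Pf4 against 128 to 172 CPM, and 14 macrophage and granulocyte markers summing to 544 CPM against 2003 to 3226 CPM. Kit+ CD45- anti-Dll4 replicate 4 differed too, with the highest globin share (49.3%) and 51.8 CPM of the mesenchymal collagen gene Col1a1 against 0.20 to 4.78 CPM in its fellow replicates. The 3 libraries numbered anti-Dll4 replicate 1 had Y-linked Ddx3y counts of at least 523 and at most 5 counts of Xist, while the other 21 had at most 15 and at least 1455. Calls of the 10 genes that were lost or gained without those libraries are given beside the gene.

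Sequences at these loci are shown for the microRNA that H19 carries and for letters in the promoters that proteins of imprinting and of the Notch pathway bind. H19 is the host of miR-675, whose mature arms from RefSeq (GRCm38.p6) both lie within the H19 gene, with the seed, bases 2 to 8, in capitals:
miR-675-5p (chr7:142577112-142577133, minus strand): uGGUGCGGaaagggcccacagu
miR-675-3p (chr7:142577078-142577099, minus strand): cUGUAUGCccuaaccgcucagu
The arms have different seeds, and neither microRNA was measured by the polyadenylated RNA libraries. RefSeq promoters, 250 bases before to 50 after a start site, were found for 8 of the 10 genes, with 15 start sites in all. They were searched on both strands for TGCCGC, which reads as GCGGCA on the other strand, the core letters that the zinc finger protein ZFP57 recognises at imprinted regions when they are methylated. Of the 15 promoters 6 held it, from Igf2, Meg3, Mest, Grb10 and Plagl1, and 2 of these 6 are overlapping Mest promoters. Among all 32851 mouse promoters of that length in RefSeq 11.61% held it. The core contains a C followed by a G (CpG), and all promoters had a median of 7 CpG. Those of the 10 genes with the core had 13 to 45 CpG, and those without it 1 to 34. The part of CpG content in these shares was not tested. The promoters of Plagl1, Mest and Meg3 are printed as 3 that held the core in genes whose level differed between the populations below, with the core letters in capitals:
Plagl1 (chr10:13090582-13090881, plus strand): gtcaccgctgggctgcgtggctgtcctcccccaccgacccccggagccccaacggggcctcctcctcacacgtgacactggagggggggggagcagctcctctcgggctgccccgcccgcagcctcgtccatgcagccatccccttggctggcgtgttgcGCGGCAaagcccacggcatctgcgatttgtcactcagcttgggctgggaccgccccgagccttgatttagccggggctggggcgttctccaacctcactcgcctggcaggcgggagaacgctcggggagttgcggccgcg
Mest, start 2 of 3 (chr6:30737800-30738099, plus strand): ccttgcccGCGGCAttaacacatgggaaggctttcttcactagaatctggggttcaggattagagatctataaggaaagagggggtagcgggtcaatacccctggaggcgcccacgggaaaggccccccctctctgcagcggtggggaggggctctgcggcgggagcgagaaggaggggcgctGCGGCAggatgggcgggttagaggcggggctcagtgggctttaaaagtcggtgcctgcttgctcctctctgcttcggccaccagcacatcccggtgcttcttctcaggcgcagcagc
Meg3, start 1 (chr12:109540746-109541045, plus strand): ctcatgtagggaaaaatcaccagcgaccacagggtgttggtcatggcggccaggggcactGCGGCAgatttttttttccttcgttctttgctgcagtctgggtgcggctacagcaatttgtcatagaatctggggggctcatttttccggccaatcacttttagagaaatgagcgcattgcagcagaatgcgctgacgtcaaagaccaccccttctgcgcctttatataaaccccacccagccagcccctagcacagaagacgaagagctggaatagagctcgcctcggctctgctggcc
In these windows Mest held the core at 2 places, and Plagl1 and Meg3 at 1 each. The letters GTGGGAA, which reads as TTCCCAC on the other strand and which RBPJ binds as the DNA-binding factor of the Notch pathway, were in 1 of the 15 promoters, that of Igf2 start 1, against 6.383% of all promoters. These matches describe letters and no binding was measured.

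**Figure D1:**
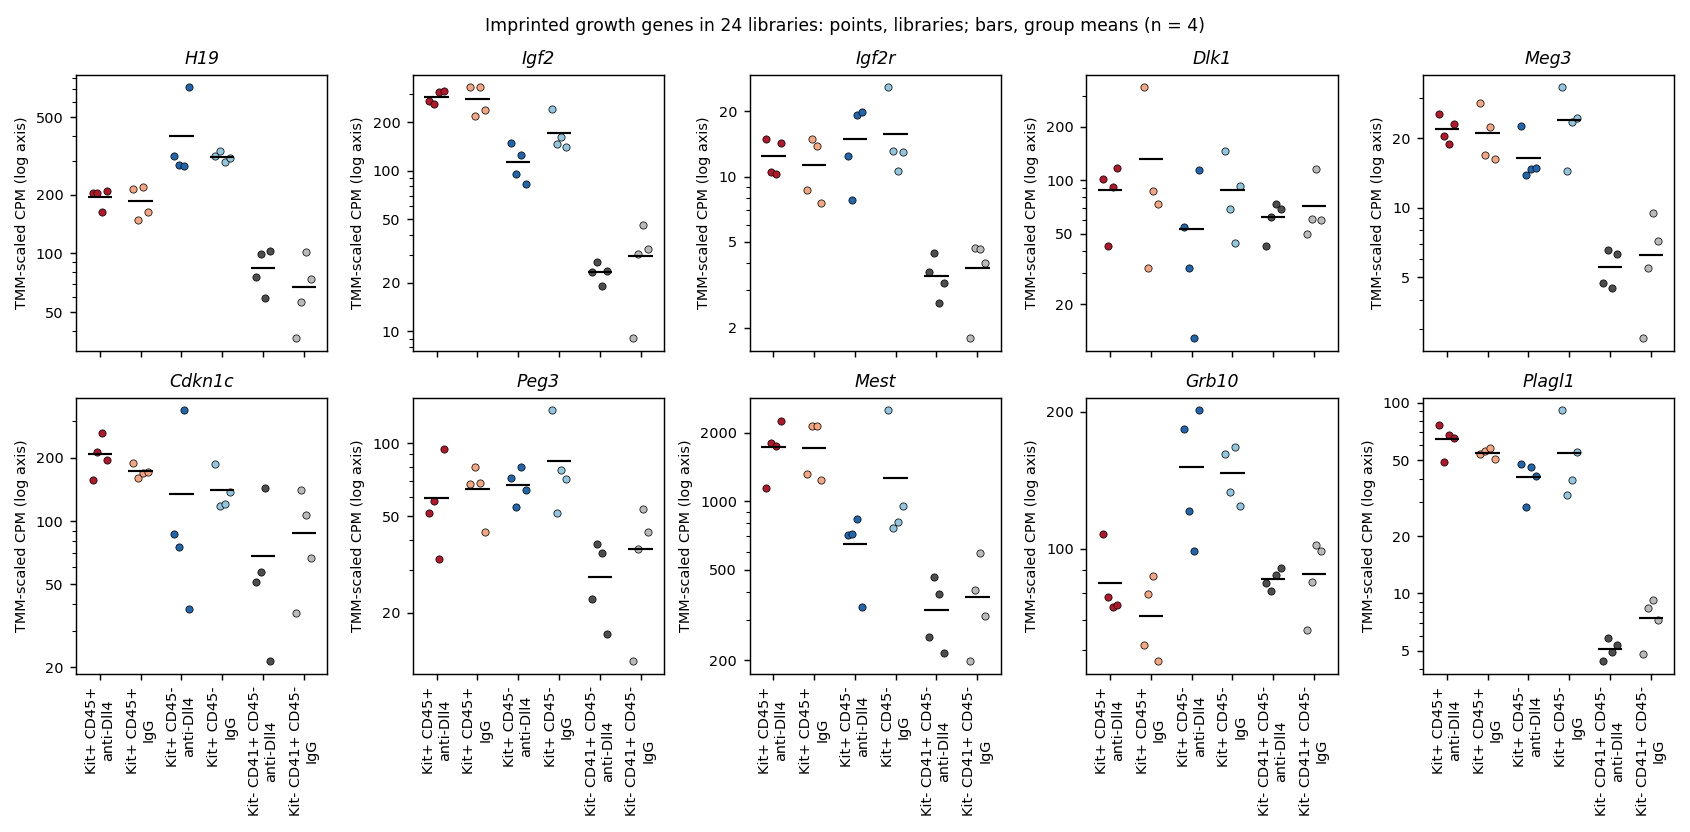
Level of each of the 10 genes in every library, in CPM on a log axis, with 4 points per group and a bar at the group mean. Igf2, Mest and Plagl1 step down across Kit+ CD45+, Kit+ CD45- and Kit- CD41+ CD45- cells under anti-Dll4, whereas H19 and Grb10 are highest in Kit+ CD45- cells.

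Igf2 encodes the fetal insulin-like growth factor that drives growth of the embryo and lies on chromosome 7 of mm10 (ENSMUSG00000048583.16, 142650766 to 142666816, minus strand). It read 273, 259, 308 and 316 CPM in Kit+ CD45+ anti-Dll4 replicates 1 to 4, against 332, 219, 330.0 and 240.1 CPM under IgG. Kit+ CD45- cells gave 149.7, 96.0, 125 and 83.1 CPM under anti-Dll4 and 241, 147, 161 and 140.3 CPM under IgG. Kit- CD41+ CD45- cells gave 23.3, 26.8, 19.2 and 23.8 CPM under anti-Dll4 and 9.07, 30.1, 45.6 and 32.3 CPM under IgG. No library of either Kit+ population overlapped the Kit- CD41+ CD45- libraries of the same antibody. Igf2 was higher in Kit+ CD45+ than in Kit- CD41+ CD45- cells by a log2 change of 3.63 (SE 0.32, adjusted p = 5.81e-09) under anti-Dll4 and 3.26 (SE 0.31, adjusted p = 1.94e-08) under IgG, by edgeR's quasi-likelihood F-test with adjustment over all 15618 genes tested. Between Kit+ CD45- and Kit- CD41+ CD45- cells the log2 change was 2.29 (SE 0.31, adjusted p = 3.98e-06) under anti-Dll4 and 2.56 (SE 0.31, adjusted p = 1.01e-06) under IgG. Igf2 was also higher in Kit+ CD45+ than in Kit+ CD45- cells under anti-Dll4, at 1.35 (SE 0.29, adjusted p = 0.00126), with no overlap of the libraries. Under IgG that difference, 0.70 (SE 0.29, adjusted p = 0.0917), did not pass, and it passed without Kit+ CD45- IgG replicate 1, at 0.91 (adjusted p = 0.0363), or without Kit- CD41+ CD45- IgG replicate 1, at 0.70 (adjusted p = 0.0146), a library that enters through the shared estimate of spread (adjusted p 0.00739 to 0.211 over 33 other settings). In sorted bulk RNA, fewer cells of an expressing type and less RNA per cell cannot be told apart, here and below.

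H19 is a long noncoding RNA that shares its control region and enhancers with Igf2 and counters growth. It lies next to Igf2 (ENSMUSG00000000031.15, chromosome 7, 142575529 to 142578143, minus strand) and ran in another order. Kit+ CD45+ cells gave 204, 204, 163 and 208 CPM under anti-Dll4 and 214, 148, 219 and 162 CPM under IgG. In Kit+ CD45- cells the values were 318, 286, 281 and 716 CPM under anti-Dll4 and 318, 335, 295 and 308 CPM under IgG. In Kit- CD41+ CD45- cells the values were 75.7, 99.6, 59.1 and 103 CPM under anti-Dll4 and 36.8, 56.2, 101 and 73.7 CPM under IgG. Kit+ CD45- libraries were the highest under both antibodies, and the 3 populations did not overlap within either antibody. Against Kit- CD41+ CD45- cells, H19 rose in Kit+ CD45+ cells by 1.21 (SE 0.28, adjusted p = 0.00133) under anti-Dll4 and 1.47 (SE 0.28, adjusted p = 0.000199) under IgG, and in Kit+ CD45- cells by 2.24 (SE 0.29, adjusted p = 1.99e-06) under anti-Dll4 and 2.23 (SE 0.29, adjusted p = 2.55e-06) under IgG. Kit+ CD45+ cells held less H19 than Kit+ CD45- cells under anti-Dll4, at -1.04 (SE 0.28, adjusted p = 0.00651), and under IgG the change of -0.76 (SE 0.27, adjusted p = 0.0554) did not pass. The anti-Dll4 call rested on Kit+ CD45- anti-Dll4 replicate 4, the library of 716 CPM with raised Col1a1: without it the change was -0.61 (adjusted p = 0.0624), and the adjusted p was 0.000666 to 0.47 over 33 other settings. Conversely, the IgG change passed in 9 of 33 other settings, among them DESeq2, at -0.80 (adjusted p = 0.0266), and without replicate 3 or 4 of Kit+ CD45- anti-Dll4 or replicate 1 or 3 of Kit- CD41+ CD45- IgG, at -0.75 to -0.77. Over all settings its adjusted p was 0.0142 to 0.387.

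The ratio of H19 to Igf2 counts within a library does not depend on scaling. As log2 of the ratio of counts (0.5 added to each, not per length), it was -0.42, -0.34, -0.91 and -0.60 under anti-Dll4 and -0.63, -0.56, -0.59 and -0.56 under IgG in Kit+ CD45+ cells. The Kit+ CD45- libraries read 1.09, 1.57, 1.17 and 3.10 under anti-Dll4 and 0.40, 1.19, 0.87 and 1.13 under IgG. The Kit- CD41+ CD45- libraries read 1.70, 1.89, 1.62 and 2.11 under anti-Dll4 and 2.02, 0.90, 1.15 and 1.19 under IgG. All 8 Kit+ CD45+ libraries had more Igf2 than H19 counts, and all 16 libraries of the other populations had more H19 than Igf2 counts. Group means were -0.57 ± 0.25 and -0.59 ± 0.03 in Kit+ CD45+ cells under anti-Dll4 and IgG, 1.73 ± 0.94 and 0.90 ± 0.36 in Kit+ CD45- cells, and 1.83 ± 0.22 and 1.31 ± 0.48 in Kit- CD41+ CD45- cells. The highest ratio, 3.10, was again that of Kit+ CD45- anti-Dll4 replicate 4. These ratios are a description, with no test.

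**Figure D2:**
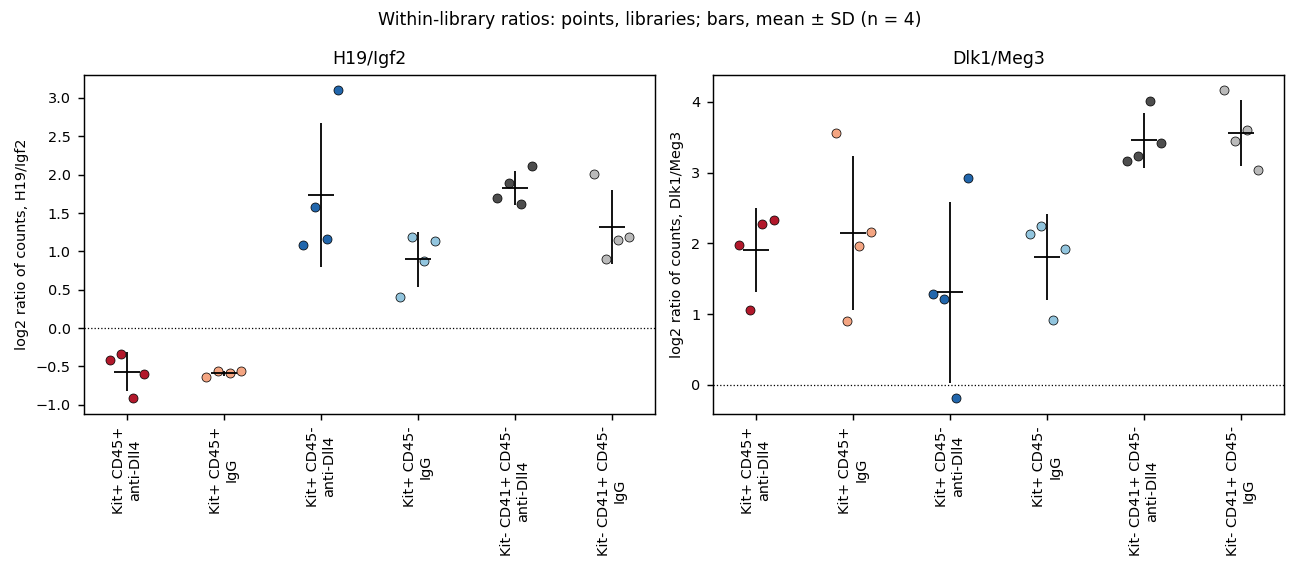
Log2 ratio of H19 to Igf2 counts and of Dlk1 to Meg3 counts in each of the 24 libraries, with 4 points per group and a bar at the group mean, and a line at equal counts. The H19 to Igf2 ratio is below 0 in all 8 Kit+ CD45+ libraries and above 0 in the other 16.

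Igf2r encodes the receptor that takes up IGF2 and delivers it to lysosomes, so it limits the growth factor (ENSMUSG00000023830.13, chromosome 17, 12682406 to 12769664, minus strand). Its level averaged 12.5 ± 2.45 CPM under anti-Dll4 and 11.3 ± 3.70 CPM under IgG in Kit+ CD45+ cells, and 14.9 ± 5.79 CPM and 15.7 ± 6.93 CPM in Kit+ CD45- cells. Kit- CD41+ CD45- cells averaged 3.47 ± 0.763 CPM under anti-Dll4 and 3.77 ± 1.35 CPM under IgG. Every Kit+ library exceeded every Kit- CD41+ CD45- library, while the Kit+ populations overlapped. Igf2r was higher in Kit+ CD45+ than in Kit- CD41+ CD45- cells by 1.84 (SE 0.36, adjusted p = 0.000234) under anti-Dll4 and 1.58 (SE 0.35, adjusted p = 0.00100) under IgG, and in Kit+ CD45- cells by 2.09 (SE 0.36, adjusted p = 9.40e-05) and 2.06 (SE 0.36, adjusted p = 0.000105). The antisense noncoding gene Airn, which overlaps Igf2r and silences it on the paternal copy in the mouse, drew 20.2 to 138% as many counts as Igf2r in the 24 libraries (median 45.0%).

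Grb10, an adaptor protein that binds the insulin and IGF receptors and dampens their signal, lies on chromosome 11 (ENSMUSG00000020176.17, 11930508 to 12038683, minus strand). Kit+ CD45+ cells gave 108, 78.4, 74.6 and 75.4 CPM under anti-Dll4 and 61.4, 79.8, 87.3 and 56.7 CPM under IgG. Kit+ CD45- cells gave 183, 121, 99.1 and 202 CPM under anti-Dll4 and 162, 134, 167 and 124 CPM under IgG. Kit- CD41+ CD45- cells gave 84.3, 81.0, 87.7 and 90.9 CPM under anti-Dll4 and 66.4, 84.7, 102 and 99.2 CPM under IgG. Grb10 was thus highest in Kit+ CD45- cells, without overlap under IgG. Kit+ CD45+ cells were lower than Kit+ CD45- cells, with a log2 change of -0.85 (SE 0.20, adjusted p = 0.00242) under anti-Dll4, where 1 library overlapped, and of -1.04 (SE 0.20, adjusted p = 0.000559) under IgG. Scaled by library totals alone, which moved the median of all genes to 0.79, the anti-Dll4 change of Grb10 was -0.07 (adjusted p = 0.766) and that of H19 -0.20 (adjusted p = 0.47), with adjusted p of 0.000119 to 0.766 for Grb10 over all settings. Against Kit- CD41+ CD45- cells, Kit+ CD45- cells were higher by 0.81 (SE 0.20, adjusted p = 0.00296) under anti-Dll4 and 0.74 (SE 0.20, adjusted p = 0.00677) under IgG, and Kit+ CD45+ cells gave -0.03 (SE 0.20, adjusted p = 0.916) and -0.31 (SE 0.20, adjusted p = 0.241), which did not pass. The IgG call of Kit+ CD45- cells was lost without the 3 libraries of IgG replicate 1, at 0.56 (adjusted p = 0.0797), and the anti-Dll4 call with library totals alone, at 0.46 (adjusted p = 0.0602), where the median of all genes was -0.19. Over all settings the adjusted p was 0.000346 to 0.0602 under anti-Dll4 and 0.0021 to 0.0797 under IgG. Of the 10 genes Grb10 varied least over the 24 libraries, with a root mean square deviation of 0.48 on the log2 scale.

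Plagl1 encodes a zinc finger transcription factor that in the mouse regulates a network of imprinted genes including Igf2, H19 and Cdkn1c (ENSMUSG00000019817.18, chromosome 10, 13060504 to 13131694, plus strand). In Kit+ CD45+ cells it read 76.7, 48.7, 68.0 and 65.0 CPM under anti-Dll4 and 54.0, 55.7, 57.7 and 50.9 CPM under IgG. In Kit+ CD45- cells it read 47.8, 28.3, 45.8 and 41.1 CPM under anti-Dll4 and 91.5, 32.8, 39.3 and 55.4 CPM under IgG. In Kit- CD41+ CD45- cells the values were 4.42, 5.84, 4.91 and 5.34 CPM under anti-Dll4 and 4.79, 8.41, 9.22 and 7.21 CPM under IgG. The lowest Kit+ library stood at 28.3 CPM and the highest Kit- CD41+ CD45- library at 9.22 CPM. The log2 change against Kit- CD41+ CD45- cells was 3.65 (SE 0.28, adjusted p = 6.62e-10) under anti-Dll4 and 2.88 (SE 0.27, adjusted p = 1.04e-08) under IgG for Kit+ CD45+ cells, and 2.99 (SE 0.27, adjusted p = 1.58e-08) and 2.89 (SE 0.27, adjusted p = 2.64e-08) for Kit+ CD45- cells. Between the Kit+ populations Plagl1 rose in Kit+ CD45+ cells under anti-Dll4 by 0.66 (SE 0.24, adjusted p = 0.0434), a call that was lost in 14 of 33 other settings, with changes of 0.51 to 0.67 and an adjusted p of 0.00147 to 0.154 over all 33. It was lost without replicate 1, 3 or 4 of Kit+ CD45+ anti-Dll4, replicate 2 or 4 of Kit+ CD45- anti-Dll4, Kit+ CD45+ IgG replicate 3, Kit+ CD45- IgG replicate 4 or Kit- CD41+ CD45- anti-Dll4 replicate 3, and without the 3 libraries of anti-Dll4 replicate 1, at 0.64 (adjusted p = 0.107).

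Cdkn1c encodes an inhibitor of cyclin-dependent kinases that holds cells out of the cycle and is known for keeping mouse blood stem cells quiescent (ENSMUSG00000037664.13, chromosome 7, 143458339 to 143461050, minus strand). Kit+ CD45+ cells gave 157, 214, 264 and 196 CPM under anti-Dll4 and 190.0, 161, 169.7 and 171 CPM under IgG. In Kit+ CD45- cells the values were 86.8, 74.9, 338 and 37.8 CPM under anti-Dll4 and 187, 118, 120.0 and 138 CPM under IgG. The Kit- CD41+ CD45- libraries read 51.0, 56.9, 144 and 21.5 CPM under anti-Dll4 and 36.4, 140.3, 106 and 66.4 CPM under IgG. Replicate 3 was the highest library in each of the 3 anti-Dll4 groups. Of the 6 population comparisons only Kit+ CD45+ over Kit- CD41+ CD45- cells under anti-Dll4 passed, at 1.60 (SE 0.52, adjusted p = 0.018), with no overlap, and it was lost in 5 of 33 other settings (adjusted p 0.00079 to 0.0746), among them those without Kit- CD41+ CD45- anti-Dll4 replicate 1, 2 or 4, at 1.31 to 1.53, and without the 3 libraries of anti-Dll4 replicate 1, at 1.58 (adjusted p = 0.0683). Under IgG that change was 0.98 (SE 0.51, adjusted p = 0.141). Kit+ CD45- against Kit- CD41+ CD45- cells gave 0.98 (SE 0.52, adjusted p = 0.16) under anti-Dll4 and 0.69 (SE 0.51, adjusted p = 0.349) under IgG, neither passing, and without Kit+ CD45- anti-Dll4 replicate 3 the anti-Dll4 value turned to -0.034. Without Kit- CD41+ CD45- anti-Dll4 replicate 3 it was 1.63 (adjusted p = 0.0273), and over all settings the adjusted p was 0.0273 to 0.974. Without replicate 3 of Kit+ CD45- anti-Dll4, Kit+ CD45+ cells exceeded Kit+ CD45- cells under anti-Dll4 by 1.64 (adjusted p = 0.00988), against 0.62 (SE 0.51, adjusted p = 0.391) with it. With the 3 libraries of one antibody and replicate number as a block, Cdkn1c also passed for Kit+ CD45+ over Kit+ CD45- cells under anti-Dll4, at 1.14 (adjusted p = 0.0359), and for Kit+ CD45+ over Kit- CD41+ CD45- cells under IgG, at 1.04 (adjusted p = 0.0417). Over all settings the adjusted p was 0.00988 to 0.731 in the comparison of Kit+ populations and 0.0417 to 0.44 in that against Kit- CD41+ CD45- cells.

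Mest encodes a protein with a hydrolase fold and is named for its expression in mesoderm (ENSMUSG00000051855.15, chromosome 6, 30723547 to 30748465, plus strand). Kit+ CD45+ cells gave 1146, 1802, 1746 and 2258 CPM under anti-Dll4 and 1313, 2141, 2155 and 1242 CPM under IgG. The Kit+ CD45- libraries read 711, 714, 836 and 343 CPM under anti-Dll4 and 2521, 763, 808 and 952 CPM under IgG. Kit- CD41+ CD45- cells gave 253, 464, 391 and 215 CPM under anti-Dll4 and 198, 408, 591 and 312 CPM under IgG. Kit+ CD45+ cells stood above Kit- CD41+ CD45- cells without overlap, by 2.39 (SE 0.39, adjusted p = 3.42e-05) under anti-Dll4 and 2.18 (SE 0.39, adjusted p = 9.39e-05) under IgG. For Kit+ CD45- over Kit- CD41+ CD45- cells the change of 0.98 (SE 0.38, adjusted p = 0.0521) under anti-Dll4 did not pass and that of 1.74 (SE 0.38, adjusted p = 0.00131) under IgG did. The anti-Dll4 value passed in 9 of 33 other settings, DESeq2 among them at 1.01 (adjusted p = 0.0221), with an adjusted p of 0.0112 to 0.221 over all. It passed without Kit+ CD45- IgG replicate 1, Kit+ CD45- anti-Dll4 replicate 4, Kit- CD41+ CD45- IgG replicate 1 or 3, or Kit- CD41+ CD45- anti-Dll4 replicate 2, at 0.98 to 1.19. Kit+ CD45+ exceeded Kit+ CD45- cells by 1.42 (SE 0.38, adjusted p = 0.00678) under anti-Dll4. Under IgG it was 0.44 (SE 0.37, adjusted p = 0.457), and 1.03 (adjusted p = 0.0349) without Kit+ CD45- IgG replicate 1, the library of 2521 CPM.

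Peg3 encodes a large zinc finger protein of maternal behaviour and growth (ENSMUSG00000002265.16, chromosome 7, 6703892 to 6730431, minus strand). It averaged 59.3 ± 25.7 CPM under anti-Dll4 and 64.9 ± 15.5 CPM under IgG in Kit+ CD45+ cells, 67.5 ± 10.7 CPM and 84.3 ± 36.7 CPM in Kit+ CD45- cells, and 28.2 ± 10.4 CPM and 36.5 ± 17.4 CPM in Kit- CD41+ CD45- cells. The Kit+ populations overlapped, with a change of -0.19 (SE 0.36, adjusted p = 0.745) under anti-Dll4 and -0.38 (SE 0.36, adjusted p = 0.518) under IgG. Kit+ CD45- exceeded Kit- CD41+ CD45- cells by 1.26 (SE 0.37, adjusted p = 0.0116) under anti-Dll4 and 1.21 (SE 0.37, adjusted p = 0.0151) under IgG. The anti-Dll4 call was lost without the 3 libraries of anti-Dll4 replicate 1, at 1.13 (adjusted p = 0.0752), and with library totals alone, at 1.01 (adjusted p = 0.0829). Its adjusted p was 0.0018 to 0.0829 over all settings. The IgG call was lost without Kit+ CD45- IgG replicate 1, the library of 137 CPM, at 0.87 (adjusted p = 0.0888), without Kit- CD41+ CD45- IgG replicate 1, at 0.92 (adjusted p = 0.0527), and without all 3 libraries of IgG replicate 1, at 0.57 (adjusted p = 0.233). Over all settings the adjusted p was 0.00437 to 0.233. Kit+ CD45+ exceeded Kit- CD41+ CD45- cells by 1.07 (SE 0.37, adjusted p = 0.0237) under anti-Dll4, a call lost in 6 of 33 other settings (adjusted p 0.00547 to 0.128), among them those without Kit+ CD45+ anti-Dll4 replicate 4 or Kit- CD41+ CD45- anti-Dll4 replicate 1 or 4, at 0.76 to 0.99, and without the 3 libraries of anti-Dll4 replicate 1, at 1.02 (adjusted p = 0.089). Under IgG the change was 0.83 (SE 0.36, adjusted p = 0.0755), which did not pass, and it passed without Kit- CD41+ CD45- IgG replicate 3, at 1.08 (adjusted p = 0.039), and with library totals alone, at 1.21 (adjusted p = 0.0266), with an adjusted p of 0.0266 to 0.266 over all settings.

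Dlk1 and Meg3 lie in one imprinted domain on chromosome 12. Dlk1 encodes a membrane protein related to the Notch ligands, which in the mouse is known to restrain expansion of blood progenitors in the embryonic aorta (ENSMUSG00000040856.17, 109452823 to 109463336, plus strand). It gave 101, 42.5, 91.7 and 116 CPM under anti-Dll4 and 335, 31.8, 87.3 and 73.1 CPM under IgG in Kit+ CD45+ cells. Kit+ CD45- cells gave 54.8, 32.1, 12.9 and 114 CPM under anti-Dll4 and 147, 69.2, 44.5 and 93.0 CPM under IgG. In Kit- CD41+ CD45- cells the values were 42.7, 62.0, 73.3 and 68.6 CPM under anti-Dll4 and 50.0, 60.5, 116 and 59.6 CPM under IgG. The libraries overlapped between all populations, and Dlk1 was the member that passed in no population comparison. With all libraries and TMM scaling its log2 changes lay between -0.23 (SE 0.58) and 0.88 (SE 0.57) across the 6 comparisons. Scaled by library totals alone it passed for Kit+ CD45+ over Kit+ CD45- cells under anti-Dll4, at 1.67 (adjusted p = 0.0206) against 0.74 (SE 0.58, adjusted p = 0.365), where the median of all genes was 0.79. The library of 335 CPM was Kit+ CD45+ IgG replicate 1, the one with the least myeloid RNA of its group. Without it the changes of Kit+ CD45+ cells under IgG turned to -0.16 against Kit- CD41+ CD45- cells, in place of 0.88, and to -0.46 against Kit+ CD45- cells, in place of 0.58. The part of myeloid cells in these values was not tested.

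Meg3, the maternally expressed long noncoding RNA of that domain (ENSMUSG00000021268.17, 109541001 to 109571726, plus strand), did differ. Its level averaged 22.0 ± 2.90 CPM under anti-Dll4 and 21.0 ± 5.66 CPM under IgG in Kit+ CD45+ cells, 16.5 ± 4.06 CPM and 23.9 ± 7.69 CPM in Kit+ CD45- cells, and 5.52 ± 1.07 CPM and 6.24 ± 2.86 CPM in Kit- CD41+ CD45- cells. No Kit- CD41+ CD45- library reached the lowest Kit+ library of its antibody. Meg3 was higher in Kit+ CD45+ cells by 1.99 (SE 0.31, adjusted p = 1.52e-05) under anti-Dll4 and 1.76 (SE 0.30, adjusted p = 6.08e-05) under IgG, and in Kit+ CD45- cells by 1.58 (SE 0.31, adjusted p = 0.000355) and 1.95 (SE 0.30, adjusted p = 3.13e-05). Between the Kit+ populations it passed in neither, at 0.41 under anti-Dll4 and -0.19 under IgG, and with library totals alone it passed under anti-Dll4, at 1.12 (adjusted p = 0.00951). Rian, the maternally expressed noncoding RNA further along the domain, was higher in Kit+ CD45+ than in Kit- CD41+ CD45- cells by 2.86 (SE 0.36, adjusted p = 1.12e-06) under anti-Dll4 and 2.13 (SE 0.35, adjusted p = 3.71e-05) under IgG. In Kit+ CD45- cells it was higher by 2.24 (SE 0.36, adjusted p = 4.24e-05) and 2.48 (SE 0.35, adjusted p = 1.05e-05). The log2 ratio of Dlk1 to Meg3 counts averaged 1.91 ± 0.59 under anti-Dll4 and 2.15 ± 1.09 under IgG in Kit+ CD45+ cells, 1.31 ± 1.27 and 1.81 ± 0.60 for Kit+ CD45- cells, and 3.46 ± 0.39 and 3.56 ± 0.47 in Kit- CD41+ CD45- cells. It fell below 0 in 1 library, Kit+ CD45- anti-Dll4 replicate 3, at -0.19.

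The calls of the 10 genes were counted in each comparison beside the share of all genes called there. For Kit+ CD45+ over Kit- CD41+ CD45- cells, 8 passed under anti-Dll4, where 37.6% of all genes tested were called, and 6 under IgG, where 37.2% were. For Kit+ CD45- over Kit- CD41+ CD45- cells, 7 passed under anti-Dll4 against 29.9% of all genes, and 8 under IgG against 27.9%. All of these calls were higher in the Kit+ population. Between Kit+ CD45+ and Kit+ CD45- cells, 5 passed under anti-Dll4 (29.2% of all genes), with Igf2, Mest and Plagl1 higher and H19 and Grb10 lower. Under IgG 1 passed (19.2% of all genes), Grb10, and 3 did without Kit+ CD45- IgG replicate 1. Without the 3 libraries of anti-Dll4 replicate 1, 6, 6 and 4 of the 10 genes passed in these anti-Dll4 comparisons, in the order given. Over all other settings the counts were 6 to 8 under anti-Dll4 and 6 to 7 under IgG for Kit+ CD45+ over Kit- CD41+ CD45- cells, 5 to 8 and 6 to 8 for Kit+ CD45- over Kit- CD41+ CD45- cells, and 3 to 6 and 1 to 4 between the Kit+ populations. These ranges are given without the share of all genes called in each setting. Whether the counts differ between comparisons was not tested. The median log2 change of the 10 genes was 1.72 under anti-Dll4 and 1.53 under IgG for Kit+ CD45+ over Kit- CD41+ CD45- cells, where the medians of all genes were 0.06 and 0.05. It was 1.42 and 1.84 for Kit+ CD45- over Kit- CD41+ CD45- cells, and 0.52 and -0.10 for Kit+ CD45+ over Kit+ CD45- cells. The comparisons under one antibody share libraries, so their counts are not independent of each other. The difference of the antibody effect was tested jointly over all 3 populations, below. Whether the contrast between the Kit+ populations alone differed by antibody was not tested.

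**Figure D3:**
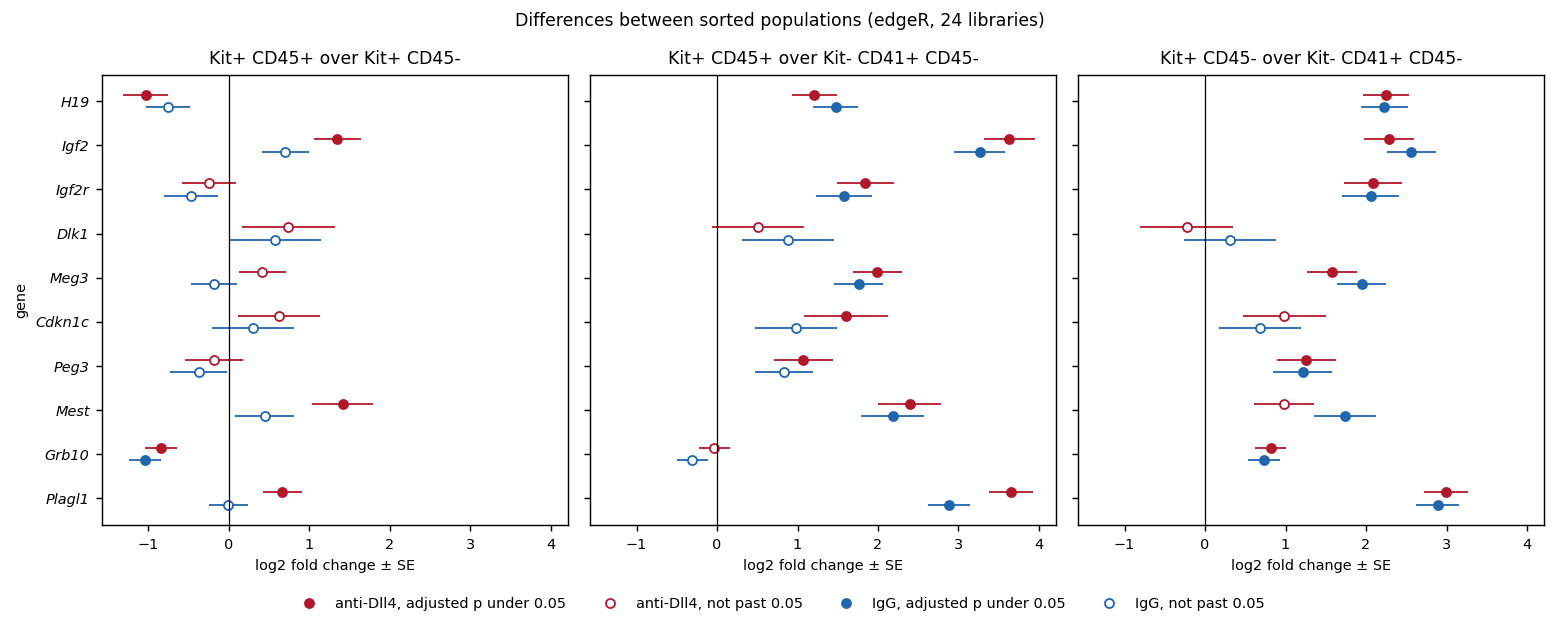
Log2 change of each gene in the 3 population comparisons, with SE bars, filled where the adjusted p was under 0.05. Against Kit- CD41+ CD45- cells 9 or all 10 values lie above 0 in each comparison, with Igf2 and Plagl1 among the farthest. Between the Kit+ populations 4 values under anti-Dll4 and 6 under IgG lie below 0, with H19 and Grb10 the farthest below.

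Markers of endothelium, of several blood lineages and of germ cells also differed between the populations, in different directions. Of 20 pan-endothelial markers, all 20 were higher in Kit+ CD45+ than in Kit- CD41+ CD45- cells under anti-Dll4 and 18 under IgG, and 15 and 17 were higher in Kit+ CD45- cells. Their summed level ran from 2759 to 3887 CPM under anti-Dll4 and 2802 to 3946 CPM under IgG in Kit+ CD45+ cells. It ran from 826 to 1556 CPM and 1517 to 3419 CPM in Kit+ CD45- cells, and from 511 to 614 CPM and 444 to 765 CPM in Kit- CD41+ CD45- cells. Between Kit+ CD45+ and Kit+ CD45- cells, 16 of the 20 were higher under anti-Dll4 and 2 under IgG. Of 16 megakaryocyte and platelet markers tested 0 were higher and 14 lower in Kit+ CD45+ than in Kit- CD41+ CD45- cells under anti-Dll4, and 0 and 14 under IgG. Their sums ran from 432 to 655 CPM under anti-Dll4 and 169 to 426 CPM under IgG in Kit+ CD45+ cells, 594 to 1725 CPM and 848 to 3924 CPM in Kit+ CD45- cells, and 23437 to 29589 CPM and 23231 to 30139.7 CPM in Kit- CD41+ CD45- cells. All 16 were lower in Kit+ CD45- than in Kit- CD41+ CD45- cells under both antibodies. Of 14 macrophage and granulocyte markers tested 14 were higher and 0 lower in Kit+ CD45+ than in Kit- CD41+ CD45- cells under anti-Dll4, and 13 and 0 under IgG. Their sums ran from 1229 to 2508 CPM under anti-Dll4 and 544 to 3226 CPM under IgG in Kit+ CD45+ cells, 34.8 to 49.4 CPM and 32.6 to 57.0 CPM in Kit+ CD45- cells, and 107 to 122 CPM and 89.5 to 149 CPM in Kit- CD41+ CD45- cells. Of 17 erythroid genes tested 16 were lower in Kit+ CD45+ than in Kit- CD41+ CD45- cells under each antibody, and 15 were higher in Kit+ CD45- than in Kit- CD41+ CD45- cells under anti-Dll4 and 13 under IgG. Under each antibody 16 were also lower in Kit+ CD45+ than in Kit+ CD45- cells. Germ cell genes tested, a list that includes Kit, numbered 14. Of these, 13 were higher in Kit+ CD45- than in Kit- CD41+ CD45- cells under anti-Dll4 and 14 under IgG. Between Kit+ CD45+ and Kit+ CD45- cells 1 germ cell gene was higher and 10 lower under anti-Dll4, and 0 and 11 under IgG. Mesenchymal markers summed to 39.4 to 107 CPM under anti-Dll4 and 29.4 to 38.4 CPM under IgG in Kit+ CD45+ cells, 37.5 to 678 CPM and 73.5 to 176 CPM in Kit+ CD45- cells, and 92.9 to 356 CPM and 63.1 to 221 CPM in Kit- CD41+ CD45- cells. The part of these cell types in the results on the 10 genes was not tested.

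Levels can be ordered between genes only per length, here as CPM per kilobase of annotated exon. By group mean Mest stood first in all 6 groups. It was at 441 ± 116 under anti-Dll4 and 434 ± 128 under IgG in Kit+ CD45+ cells, 165 ± 54.0 and 319.7 ± 214 for Kit+ CD45- cells, and 83.8 ± 29.6 and 95.6 ± 42.1 in Kit- CD41+ CD45- cells. Cdkn1c and H19 came next by mean in every group, in an order that differed between groups. In Kit+ CD45+ cells Cdkn1c was at 102 ± 21.8 under anti-Dll4 and 84.7 ± 6.07 under IgG, H19 was at 79.2 ± 8.55 and 75.6 ± 14.6, and their libraries overlapped under both antibodies. Igf2r and Meg3 were the lowest of the 10 in every group, at 1.34 ± 0.263 and 1.21 ± 0.16 in Kit+ CD45+ cells under anti-Dll4, and traded places in several groups when the longest transcript was used as the length. The order of means did not hold in every library. In Kit+ CD45- anti-Dll4 replicate 4, H19 was at 716 CPM over 2460 exon bases and Mest at 343 CPM over 3945. Across that group H19 averaged 400 ± 211 CPM and Mest 651 ± 213 CPM. In Kit+ CD45- cells H19 also exceeded Cdkn1c per length. Before division by length, H19 and Cdkn1c averaged 400 and 134 CPM under anti-Dll4 and 314 and 141 CPM under IgG.

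Reads of overlapping genes could enter these values, because the strand setting of the counting is not given in the sources used here. Copg2, which lies against Mest on the other strand, drew 35.1 to 49.4% as many counts as Mest in the 24 libraries. The predicted gene Gm44732 drew 40.0 to 53.4% as many as Cdkn1c. Both stayed in a narrow band of their partner, unlike Airn and Igf2r. Over all libraries Airn had 1076 counts and Igf2r 2516, against 275149 for Mest and 35570 for Cdkn1c. Counting error therefore weighs more on the Airn percentages. Adding Gm44732 to Cdkn1c, an alternative chosen after the data were seen, changed no call of Cdkn1c. Overlapping genes of H19, Igf2 and Meg3 were small beside them, with 2206 counts of Gm27483 against 47184 of H19, 336 of Igf2os against 41061 of Igf2 and 989 of Gm26906 against 4041 of Meg3 over all libraries.

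Genes with the most similar pattern were taken by the smallest root mean square difference of log2 CPM over the 24 libraries, each gene centred on its own mean, among 10264 candidates. For Mest the nearest was its overlapping neighbour Copg2 (0.13), then Cnn3 (0.31), an actin-binding protein gene. Igf2 was nearest to Hdac7 (0.38), a histone deacetylase gene, and Cttnbp2nl (0.40), and Plagl1 to Crip2 (0.33) and the fibronectin gene Fn1 (0.35). H19 was nearest to Cep164 (0.41) and the Wnt pathway factor gene Tcf7l2 (0.43), and Igf2r to Tcf7l2 (0.37) and Afdn (0.38). Meg3 was nearest to Luzp1 (0.30) and Afdn (0.31), and Grb10 to the splicing gene Snrpe (0.22) and Uqcc2 (0.24). Cdkn1c was nearest to Pcbp4 (0.48) and Hyal2 (0.48), Peg3 to Pde7a (0.43) and Rcbtb1 (0.43), and Dlk1 to Zfp975 (0.66) and Zfp275 (0.67). Dlk1 had the most distant neighbours of the 10. Among the members themselves the closest pairs were Igf2 and Plagl1 (0.44), Igf2r and Meg3 (0.46), and H19 and Igf2r (0.48). Libraries share scaling and cell make-up, so these distances are descriptions.

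Other imprinted genes did not all go the same way. The lists used here and in the next paragraph include Airn, Igf2os and Copg2, which overlap Igf2r, Igf2 and Mest. Of 27 further paternally expressed genes 20 were tested: 8 were higher and 1 lower in Kit+ CD45+ than in Kit- CD41+ CD45- cells under anti-Dll4, and 6 higher and 4 lower under IgG, where 37.6% and 37.2% of all genes were called. The amino acid transporter gene Slc38a4 was higher by 2.29 (SE 0.26, adjusted p = 2.31e-07) under anti-Dll4 and 1.83 (SE 0.26, adjusted p = 4.19e-06) under IgG, and Zdbf2 by 2.24 (SE 0.33, adjusted p = 7.61e-06) and 1.60 (SE 0.32, adjusted p = 0.000312). In Kit+ CD45- over Kit- CD41+ CD45- cells 3 were higher and 3 lower under anti-Dll4, and 8 higher and 1 lower under IgG. Between the Kit+ populations 6 were higher and 1 lower in Kit+ CD45+ cells under anti-Dll4, and 0 higher and 2 lower under IgG. Shares of all genes called were 29.9% and 27.9% against Kit- CD41+ CD45- cells, and 29.2% and 19.2% between the Kit+ populations. The splicing-factor gene Snrpn was lower, at -1.16 (SE 0.18, adjusted p = 5.22e-05) under anti-Dll4 and -1.12 (SE 0.18, adjusted p = 0.000106) under IgG. Their median log2 change was 0.26 under anti-Dll4 and 0.31 under IgG for Kit+ CD45+ over Kit- CD41+ CD45- cells, 0.25 and 0.48 for Kit+ CD45- over Kit- CD41+ CD45- cells, and 0.57 and 0.24 for Kit+ CD45+ over Kit+ CD45- cells. All genes tested had medians of 0.06 and 0.05, 0.07 and 0.06, and 0.10 and 0.04 in the same comparisons. In other settings the calls of both directions numbered 6 to 11 under anti-Dll4 and 8 to 11 under IgG for Kit+ CD45+ over Kit- CD41+ CD45- cells, 4 to 8 and 5 to 9 for Kit+ CD45- over Kit- CD41+ CD45- cells, and 5 to 15 and 2 to 9 between the Kit+ populations. Without Kit+ CD45- IgG replicate 1, 4 in place of 2 were called between the Kit+ populations under IgG and 5 in place of 9 for Kit+ CD45- over Kit- CD41+ CD45- cells, and without Kit- CD41+ CD45- IgG replicate 1 the count against Kit- CD41+ CD45- cells was also 5.

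Of 29 further maternally expressed genes 24 were tested, with 9 higher and 4 lower in Kit+ CD45+ than in Kit- CD41+ CD45- cells under anti-Dll4, and 8 and 5 under IgG, against 37.6% and 37.2% of all genes. The tetraspanin gene Tspan32, which blood cells express, was lower in Kit+ CD45+ cells, at -4.02 (SE 0.24, adjusted p = 5.01e-11) under anti-Dll4 and -4.33 (SE 0.25, adjusted p = 9.27e-12) under IgG. For Kit+ CD45- over Kit- CD41+ CD45- cells 7 were higher and 6 lower under anti-Dll4, and 8 and 5 under IgG. Shares of all genes called there were 29.9% and 27.9%. Phlda2, a restrainer of placental growth next to Cdkn1c, was higher in Kit+ CD45- cells by 4.36 (SE 0.81, adjusted p = 0.000228) under anti-Dll4 and 3.38 (SE 0.77, adjusted p = 0.00174) under IgG. Shares of all genes called between the Kit+ populations were 29.2% under anti-Dll4 and 19.2% under IgG. Of the 24 genes, 6 were higher and 4 lower in Kit+ CD45+ than in Kit+ CD45- cells under anti-Dll4, and 2 and 4 under IgG. Their median log2 change was 0.62 under anti-Dll4 and 0.35 under IgG for Kit+ CD45+ over Kit- CD41+ CD45- cells, 0.70 and 0.54 for Kit+ CD45- over Kit- CD41+ CD45- cells, and 0.38 and 0.19 for Kit+ CD45+ over Kit+ CD45- cells. In other settings the calls of both directions numbered 12 to 14 under anti-Dll4 and 9 to 14 under IgG for Kit+ CD45+ over Kit- CD41+ CD45- cells, 11 to 14 and 7 to 13 for Kit+ CD45- over Kit- CD41+ CD45- cells, and 6 to 17 and 4 to 10 between the Kit+ populations. Without Kit+ CD45- anti-Dll4 replicate 4, 6 in place of 10 were called between the Kit+ populations under anti-Dll4, and without the 3 libraries of IgG replicate 1, 7 in place of 13 for Kit+ CD45- over Kit- CD41+ CD45- cells under IgG.

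Of 20 genes of IGF signalling outside the 10, 17 were tested. In Kit+ CD45+ over Kit- CD41+ CD45- cells 10 were higher and 3 lower under anti-Dll4, and 10 and 3 under IgG, beside 37.6% and 37.2% of all genes. Between Kit+ CD45+ and Kit- CD41+ CD45- cells Igf1, the ligand related to Igf2, gave 111 ± 30.7 CPM against 6.16 ± 2.03 CPM under anti-Dll4, a log2 change of 4.17 (SE 0.39, adjusted p = 1.56e-08), and 104 ± 23.5 CPM against 9.03 ± 4.47 CPM under IgG, a log2 change of 3.51 (SE 0.38, adjusted p = 9.04e-08). The IGF-binding protein gene Igfbp3 was higher by 4.89 (SE 0.58, adjusted p = 4.02e-07) under anti-Dll4 and 5.16 (SE 0.58, adjusted p = 1.80e-07) under IgG, and Igfbp4 by 4.07 (SE 0.46, adjusted p = 2.33e-07) and 3.51 (SE 0.45, adjusted p = 1.24e-06). Irs2, a docking protein of the insulin and IGF receptors, was lower under IgG, at -3.10 (SE 0.47, adjusted p = 1.19e-05). For Kit+ CD45- over Kit- CD41+ CD45- cells 7 were higher and 1 lower under anti-Dll4, and 9 and 1 under IgG. Between the Kit+ populations 6 were higher and 0 lower in Kit+ CD45+ cells under anti-Dll4, and 2 and 1 under IgG. Shares of all genes called were 29.9% and 27.9% against Kit- CD41+ CD45- cells, and 29.2% and 19.2% between the Kit+ populations. Igf2bp3, whose protein binds Igf2 mRNA, was higher in Kit+ CD45+ cells by 0.85 (SE 0.18, adjusted p = 0.00103) under anti-Dll4 and 0.65 (SE 0.18, adjusted p = 0.0115) under IgG, and the chromatin gene Hmga2 by 1.32 (SE 0.25, adjusted p = 0.000336) and 0.70 (SE 0.25, adjusted p = 0.0477). Their median log2 change was 0.70 under anti-Dll4 and 0.96 under IgG for Kit+ CD45+ over Kit- CD41+ CD45- cells, 0.51 and 0.56 for Kit+ CD45- over Kit- CD41+ CD45- cells, and 0.48 and 0.43 for Kit+ CD45+ over Kit+ CD45- cells. In other settings the calls of both directions numbered 11 to 13 under anti-Dll4 and 12 to 13 under IgG for Kit+ CD45+ over Kit- CD41+ CD45- cells, 6 to 9 and 5 to 10 for Kit+ CD45- over Kit- CD41+ CD45- cells, and 5 to 10 and 1 to 8 between the Kit+ populations. The 3 calls between the Kit+ populations under IgG became 7 without Kit+ CD45- IgG replicate 1, and 1 without replicate 2 or 3 of Kit+ CD45- IgG or replicate 3 of Kit+ CD45+ IgG. The 10 calls for Kit+ CD45- over Kit- CD41+ CD45- cells under IgG became 5 or 6 without replicate 1 or 4 of either group.

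Of 19 genes known for setting or keeping imprints 17 were tested. In Kit+ CD45+ over Kit- CD41+ CD45- cells 4 were higher and 0 lower under anti-Dll4, and 4 and 2 under IgG, against 37.6% and 37.2% of all genes called. In Kit+ CD45- over Kit- CD41+ CD45- cells there were 3 and 2 under anti-Dll4 and 2 and 2 under IgG, against 29.9% and 27.9% of all genes. Between the Kit+ populations 4 were higher and 2 lower in Kit+ CD45+ cells under anti-Dll4, and 1 and 3 under IgG, against 29.2% and 19.2%. The de novo methyltransferase gene Dnmt3b was higher in Kit+ CD45+ than in Kit+ CD45- cells, at 100.1 ± 36.4 CPM against 27.3 ± 10.5 CPM under anti-Dll4, a log2 change of 1.86 (SE 0.27, adjusted p = 1.94e-05), and 105 ± 33.5 CPM against 23.0 ± 2.90 CPM under IgG, a log2 change of 2.19 (SE 0.28, adjusted p = 3.53e-06). Dnmt3a was higher in Kit+ CD45+ cells under anti-Dll4, at 1.63 (SE 0.36, adjusted p = 0.00149). Dppa3, which shields methylation in the zygote and marks germ cells, averaged 108 ± 65.0 CPM under anti-Dll4 and 111 ± 67.2 CPM under IgG in Kit+ CD45- cells, and had at most 4 counts in any library of the other populations. In other settings the calls of both directions numbered 2 to 8 under anti-Dll4 and 4 to 7 under IgG for Kit+ CD45+ over Kit- CD41+ CD45- cells, 4 to 8 and 3 to 7 for Kit+ CD45- over Kit- CD41+ CD45- cells, and 4 to 13 and 3 to 7 between the Kit+ populations. Without the 3 libraries of anti-Dll4 replicate 1, 2 in place of 4 were called for Kit+ CD45+ over Kit- CD41+ CD45- cells under anti-Dll4. The 17 genes had a median log2 change of 0.19 under anti-Dll4 and 0.19 under IgG for Kit+ CD45+ over Kit- CD41+ CD45- cells, 0.19 and 0.24 for Kit+ CD45- over Kit- CD41+ CD45- cells, and 0.10 and -0.06 for Kit+ CD45+ over Kit+ CD45- cells.

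Under anti-Dll4 none of the 10 genes passed against IgG in any population. For Kit+ CD45- cells edgeR called 0 of all genes (0%) and DESeq2 70, and both tools called 0 of the 10 genes. With edgeR, 1733 of all 15618 genes tested had an unadjusted p under 0.05, and 2 of the 10 did. Those 2 were Mest, at -0.95 (SE 0.38, unadjusted p = 0.0181, adjusted p = 0.393), and Igf2, at -0.60 (SE 0.29, unadjusted p = 0.0483, adjusted p = 0.445). Mest averaged 651 ± 213 CPM under anti-Dll4 and 1261 ± 844 CPM under IgG, and Igf2 113 ± 29.9 CPM and 172 ± 46.5 CPM. In both genes the anti-Dll4 and IgG libraries overlapped, and the Mest mean under IgG included the replicate 1 library at 2521 CPM. Without that library the change was -0.37 for Mest (adjusted p = 0.930, and 0.221 to 0.93 over 34 other settings) and -0.40 for Igf2 (adjusted p = 0.921, and 0.263 to 0.921 over 34). Of the 10 genes 8 had a negative change and 2 a positive one there, with a median of -0.37.

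In Kit- CD41+ CD45- cells edgeR called 0 of all genes (0%) and DESeq2 2. Of the 10 genes both tools called 0, with 0 at an unadjusted p under 0.05, and the smallest p was that of Plagl1, at 5.13 ± 0.608 CPM under anti-Dll4 and 7.41 ± 1.93 CPM under IgG, a change of -0.53 (SE 0.27, unadjusted p = 0.0647). Of the changes 9 were negative and 1 positive, with a median of -0.20. In Kit+ CD45+ cells edgeR called 1 of all genes (0.0064%) and DESeq2 13, and of the 10 genes both called 0, with 0 at an unadjusted p under 0.05, 8 changes positive and 2 negative, and a median of 0.06. Averaged over the 3 populations, edgeR called 0 of all genes (0%) and DESeq2 32, and 0 of the 10 with either tool. With edgeR, 1311 of all 15618 genes tested had an unadjusted p under 0.05 there, and 0 of the 10 did. Igf2 gave -0.30 (SE 0.17, unadjusted p = 0.0917) and Mest -0.37 (SE 0.21, unadjusted p = 0.0948). The anti-Dll4 and IgG libraries overlapped for all 10 genes in all 3 populations, where the share of all genes that did not overlap was 3.15% in Kit+ CD45- cells, 2.22% in Kit- CD41+ CD45- cells and 1.8% in Kit+ CD45+ cells. In the joint test over the 3 populations, the antibody effect differed for 0 of the 10 genes with edgeR and DESeq2. After adjustment 0.0256% of all genes were called in that test. At an unadjusted p under 0.05 the antibody effect differed for 0 of the 10 genes and for 631 of all 15618 genes tested. The smallest unadjusted p of the 10 was 0.0782, for Plagl1 (adjusted p = 1).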

How the data were processed

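The deposited counts are whole numbers of reads per gene, made by the authors with STAR and HTSeq on mm10, per the submitters' processing notes, which also name CASAVA 1.4, FastQC and DESeq2. The authors' log2 values equal log2 of the count over a size factor, plus 1, within 5.15e-14, and served for gene names. The sources used here give no strand setting or annotation release. Among the columns of counts, 1 library matched no sample and was not used.

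All 24 libraries were fitted in R 4.3.3 with edgeR 4.0.16 (limma 3.58.1), in 6 groups of 4: TMM scaling (factors 0.525 to 1.37), edgeR's filter on low counts by group, and the robust quasi-likelihood F-test with 18 residual degrees of freedom. Of 29716 genes 15618 were tested, p-values were adjusted by Benjamini-Hochberg over them, and the threshold was 0.05. The script was tested on simulated data. Alternatives were RLE, upper-quartile and library-total scaling, no filter, DESeq2 1.42.0, a replicate block, globin share as a covariate, and leaving out libraries. Library depth was alike, so counting error was largest for Igf2r and Meg3.

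The 10 genes and all lists were chosen with earlier results of these data known. Of the lists, up to 4 genes per comparison with the smallest p among those past the threshold and at 5 CPM or more could be named, and 2 nearest genes per member. Gene positions are those of the authors' annotation of the log2 table, and exon lengths come from a GENCODE annotation of mouse whose positions matched for all 10 genes. RefSeq sequences are of GRCm38.p6. Mouse RefSeq promoters of H19 and Cdkn1c were not used here.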

Additional observations from a re-analysis of the deposited data

Results flagged for a closer look

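For each of the 10 genes in each of the 6 groups, the distance of the highest or lowest library from its nearest fellow was set against the range of the group, with Dixon's 95% critical value for 4 libraries (0.829). Of 60 groups 8 held such a library, where chance flags about 1 in 20 groups if they are independent and normally distributed. The 10 genes were read in the same libraries, so an odd library can flag several genes. Whether 8 exceeds chance can therefore not be judged from that rate. Kit+ CD45- cells held 5 of the 8. H19 was 716 CPM in Kit+ CD45- anti-Dll4 replicate 4, the library with the most Col1a1 and globin in its group, against 281 to 318 CPM in the other replicates. Cdkn1c was 338 CPM in Kit+ CD45- anti-Dll4 replicate 3, against 37.8 to 86.8 CPM. Meg3 was 22.5 CPM in Kit+ CD45- anti-Dll4 replicate 1, against 13.9 to 14.9 CPM. In Kit+ CD45- IgG replicate 1, the library with the lowest globin share of its group (16.9%) and the highest pan-endothelial sum (3419 CPM, against 1517 to 1899 CPM), Mest was 2521 CPM, against 763 to 952 CPM, and Igf2r was 25.9 CPM, against 10.6 to 13.1 CPM.

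In Kit+ CD45+ cells under anti-Dll4, H19 was 163 CPM in replicate 3, against 204 to 208 CPM, and Grb10 was 108 CPM in replicate 1, against 74.6 to 78.4 CPM. Dlk1 was 116 CPM in Kit- CD41+ CD45- IgG replicate 3, against 50.0 to 60.5 CPM. The part of cell make-up in these values was not tested.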

How the results depend on the processing

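In all, 35 other settings were run, 33 of them for each comparison of populations and 34 for each of antibodies within or over the populations. Of 35 calls of single genes 26 held in every setting run and 9 were lost in at least 1. For Kit+ CD45+ over Kit+ CD45- cells under IgG, where 1 of the 10 genes passed, 2 did with RLE, upper-quartile and library-total scaling and with DESeq2, and 4 did without the IgG libraries of replicate 1 in every population, a setting chosen after seeing the data. Leaving out 1 library gave 1 to 3, and under anti-Dll4 3 to 6 in place of 5, with 3 without Kit+ CD45- anti-Dll4 replicate 4. The cause was not tested. Library totals alone moved the median log2 change of all genes between the Kit+ populations under IgG to 0.52, from 0.04 with TMM scaling. Shares of all genes called in other settings are not given here. The counts of the 10 genes in those settings therefore cannot be set against them. Cdkn1c reversed in Kit+ CD45- over Kit- CD41+ CD45- cells under anti-Dll4, at -0.034 without Kit+ CD45- anti-Dll4 replicate 3, and leaving out 1 library gave up to 1.63. Of the 65 values followed for single genes, 25 other reversals in sign were of values that had not passed. With library totals alone they were Meg3 (0.26), Peg3 (0.043) and Plagl1 (0.40) between the Kit+ populations under IgG, Igf2r (0.45) and Peg3 (0.49) under anti-Dll4, and Grb10 in Kit+ CD45+ over Kit- CD41+ CD45- cells (0.39 under anti-Dll4 and 0.063 under IgG). Upper-quartile scaling gave 0.0022 for Grb10 there under anti-Dll4, and a replicate block by antibody and number gave 0.038 for Plagl1 between the Kit+ populations under IgG. Without the IgG libraries of replicate 1 that Plagl1 value was 0.35, and Dlk1 under IgG was -0.12 between the Kit+ populations, -0.32 in Kit+ CD45+ and -0.20 in Kit+ CD45- over Kit- CD41+ CD45- cells. Leaving out 1 library gave Dlk1 values under IgG of -0.46 to 0.94, -0.16 to 1.22 and -0.054 to 0.64 in those comparisons, and -0.91 to 0.10 in Kit+ CD45- over Kit- CD41+ CD45- cells under anti-Dll4. It gave -0.37 to 0.016 for Meg3 and -0.19 to 0.36 for Plagl1 between the Kit+ populations under IgG, -0.50 to 0.013 for Peg3 there under anti-Dll4, and -0.17 to 0.022 for Grb10 in Kit+ CD45+ over Kit- CD41+ CD45- cells under anti-Dll4. In the 4 comparisons with Kit- CD41+ CD45- cells, 5 to 8 of the 10 genes passed in every setting. No setting gave a call under anti-Dll4 against IgG, and at an unadjusted p under 0.05 the number of the 10 genes was 0 to 5 for the Kit+ CD45- population, 0 to 3 for Kit- CD41+ CD45- and 0 for Kit+ CD45+. With all libraries and TMM scaling, 1733, 435 and 453 of the 15618 genes tested were under it, in that order. Of 24 counts over other gene lists, 30 values in other settings moved by over 1.5 times. Among 60 levels per length 30 moved by over 1 SD with the longest transcript and 18 with library totals, and 0 of the ratios moved with a pseudocount of 1.

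The labels do not say that the replicate numbers pair the libraries. A correlation of deviations over 0.1 was found in 0 of 12 pairs of the same number and population, and in 6 of 24 pairs of the same number and antibody, against 3 of 72 pairs of the same antibody and different numbers (medians 0.052 and -0.022). The 3 anti-Dll4 replicate 1 libraries also share their Y-linked counts, and whether libraries of one antibody and number share embryos is not stated. With a replicate block by number 0 of the 10 genes passed under anti-Dll4 against IgG in each population. With a replicate block by antibody and number 2 passed for Kit+ CD45+ over Kit+ CD45- cells under IgG, and 5 calls changed. H19 in that comparison passed, at -0.78 (adjusted p = 0.0232), as did both Cdkn1c values given above. Under anti-Dll4, Plagl1 between the Kit+ populations, at 0.67 (adjusted p = 0.0559), and Peg3 in Kit+ CD45+ over Kit- CD41+ CD45- cells, at 1.06 (adjusted p = 0.0617), did not.

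Depth limits Igf2r and Meg3 most, with 2516 and 4041 counts over all 24 libraries. The antibody effect on Mest in Kit+ CD45- cells, a log2 change of -0.95, had an SE of 0.38. The counts cannot separate the parental copies or, with no strand setting stated, overlapping genes. No group was left uninjected, and the populations differ in endothelial, erythroid, megakaryocyte and platelet, macrophage and granulocyte, and germ cell content.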
